A study of Mus musculus with 8 samples.

Results

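The myeloid C-type lectins followed here are 10 named genes, Clec4a1, Clec4a2, Clec4a3, Clec4d, Clec4e, Clec4n, Clec5a, Clec7a, Clec10a and Clec12a, of 34199 genes in the count files. They were chosen by name, as receptors of this family that myeloid cells carry, and all 10 were found in the files. Like the other gene lists below, they were picked with earlier results of these data known. Shares over all genes beside their counts are therefore descriptive. Their RNA was measured in immortalized mouse granulocyte-macrophage progenitors (iGMPs), which are C57Bl/6 bone marrow cells held in a dividing state by HOXA9 fused to an estrogen receptor domain (ER-HOXA9) and fitted with a GFP reporter under the lysozyme promoter. The fusion protein works only while estradiol is present, and all 8 libraries share this background and stem cell factor in the medium. Uninduced cells (0 h) were kept in estradiol at 150 ng/ml. For the CAF-1 OFF state, cells stayed in estradiol and received 500 µM IPTG for 48 h to switch on a short hairpin RNA against Chaf1b, a subunit of the chromatin assembly factor CAF-1. HOXA9 OFF cells had estradiol withdrawn for 48 h, which lets iGMPs mature along the neutrophil path. The IPTG-treated control was taken after 48 h of IPTG, and the labels give neither its dose nor its estradiol. The study describes its IPTG control as a vector with a spacer sequence, and its lines as clones. Each group had 2 libraries, and nothing in the labels says that these came from separate cultures or clones, so p-values measure only the spread between these libraries. The study's supplement speaks of independent sub-clones for its RNA-seq tracks but does not tie them to these libraries, so how far the spread is technical is not known.

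C-type lectin receptors are surface proteins with which myeloid cells read sugars and lipids of microbes and debris of dead cells. Activating members pass their signal through an immunoreceptor tyrosine-based activation motif (ITAM), which either sits in a partner chain, the Fc receptor gamma chain (Fcer1g) or DAP12 (Tyrobp), or is carried in a shortened form in the receptor's own tail. The kinase Syk and the adaptor Card9 then relay it to NF-κB. Inhibitory members carry an inhibitory motif (ITIM) that recruits the phosphatases SHP-1 (Ptpn6) and SHP-2 (Ptpn11). Monocytes, macrophages, dendritic cells and neutrophils all use sets of these receptors, and the sets change as the cells mature.

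The libraries held 14044284 to 22423837 gene counts each, and 3 counts in a library corresponded to 0.128 to 0.212 counts per 1000000 (CPM) after scaling. Chaf1b checked the hairpin: it read 96.8 and 100.3 CPM in uninduced libraries, 95.1 and 101.7 in the IPTG-treated control, 18.7 and 9.72 with the hairpin induced (CAF-1 OFF), and 48.3 and 41.0 without estradiol (HOXA9 OFF). The IPTG-treated control replicate 1 library stood apart in that 14.6% of its reads fell in no annotated gene, against 5.30 to 7.79% in the other 7. Of 12 neutrophil markers tested, 9 were called higher than in uninduced cells after CAF-1 depletion and 12 after estradiol withdrawal, and of 11 monocyte and macrophage markers 3 and 10 were, where 10.5% and 25.2% of all tested genes were higher and 3.50% and 22.1% lower. Some of these markers, such as Ltf and Retnlg, passed the filter on low counts through HOXA9 OFF alone. Among those that passed in every group, 7 and 8 of 8 neutrophil markers and 2 and 6 of 7 monocyte and macrophage markers were called higher. Of 8 progenitor markers the test called 2 higher after CAF-1 depletion, while estradiol withdrawal gave 2 higher and 3 lower. Of 6 erythroid and megakaryocyte markers, 4 and 3 were called higher in these groups, of 4 lymphoid markers 2 and 1 (1 more lower in HOXA9 OFF), and of 4 dendritic cell markers 0 in CAF-1 OFF, with 2 higher and 2 lower in HOXA9 OFF cells. With 1 library left out, the CAF-1 OFF calls against uninduced cells ranged from 4 to 10 for the neutrophil markers (4 without uninduced replicate 1), 0 to 3 for the monocyte and macrophage markers (0 without CAF-1 OFF replicate 2), 0 to 2 for progenitor, 1 to 3 for erythroid and megakaryocyte and 0 to 1 for lymphoid markers. In HOXA9 OFF cells they were 12 throughout for neutrophil markers and 8 to 12 for monocyte and macrophage markers, of which some were tested only in such fits. The dendritic marker Cd209a was at 0 in all 8 libraries.

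Of the 10 lectin genes, 9 lie on chromosome 6 (mm9). The Dectin-2 cluster spans 368 kb at chr6:122871866-123239889 and holds 6 of them, in the order Clec4a1, Clec4a3, Clec4a2, Clec4n, Clec4d and Clec4e, with Clec4e alone on the minus strand. Clec12a and Clec7a are the ends of a second, 130 kb cluster at chr6:129292709-129422790. Clec5a (chr6:40524897-40535804) stands alone, and Clec10a is at chr11:69980125-69984336. No exon of any of the 10 overlapped an exon of another gene. Coding sequences were most alike between Clec4a2 and Clec4a3, which were identical at 76% of aligned positions, and Clec4a1 shared 73.6% with Clec4a2 and 72.2% with Clec4a3. Even so, every 50-base window of the transcripts of 8 members was found in no other gene. The exceptions were Clec4a2, with 91.24% of windows unique and the rest shared with Clec4a4, Clec4b1 and unrelated genes, and Clec10a, with 83.28%, whose remaining windows matched its paralogue Mgl2, so the Clec10a values are uncertain to the extent that reads were shared with Mgl2.

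RefSeq promoter sequences (GRCm38.p6) were at hand for 8 of the 10 genes, without Clec4n and Clec10a, and the 250 bases before the gene start were searched on both strands for letters that blood cell factors are known to bind. GAGGAA, a core recognised by the myeloid factor PU.1, was in 8 of 10 windows, against 23.3% of 32851 mouse promoter windows. These 10 windows belong to 8 genes, since Clec4a3 and Clec7a have a pair of overlapping windows each, and the 8 cover 7 genes, with Clec4a3 holding the letters in only 1 of its pair. TTGCNNAA, part of the C/EBP recognition sequence, was in 2 of 10 windows, against 9.56% of all. The RUNX letters TGTGGT were in 6 of 10, against 14% of all. These 6 belong to 5 of the 8 genes, since both Clec4a3 windows hold the same site. TGANTCA (AP-1) was in 1 of 10, against 6.75% of all, and CGGAAG (other ETS factors, 13.6% of all) was in 0 of 10. Members of the same cluster are related by descent, so their windows are not separate samples, and a match of letters is not a bound site. The windows of 4 members are shown because these genes mark the range of responses described below: Clec5a and Clec12a were called higher in both induced states, Clec4a2 in HOXA9 OFF cells only among the calls, and Clec4e in neither. Each runs 5′ to 3′ toward the gene start, with GAGGAA and TTGCNNAA matches on either strand in capitals. In mm9 they are Clec5a at chr6:40535805-40536054 (minus strand), Clec12a at chr6:129300012-129300261 (plus), Clec4a2 at chr6:123072458-123072707 (plus) and Clec4e at chr6:123239890-123240139 (minus).
Clec5a: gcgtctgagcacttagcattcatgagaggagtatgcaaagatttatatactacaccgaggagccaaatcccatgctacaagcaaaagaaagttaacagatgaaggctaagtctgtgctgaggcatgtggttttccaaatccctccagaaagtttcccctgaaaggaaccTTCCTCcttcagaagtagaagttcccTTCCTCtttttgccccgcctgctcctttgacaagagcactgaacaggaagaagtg
Clec12a: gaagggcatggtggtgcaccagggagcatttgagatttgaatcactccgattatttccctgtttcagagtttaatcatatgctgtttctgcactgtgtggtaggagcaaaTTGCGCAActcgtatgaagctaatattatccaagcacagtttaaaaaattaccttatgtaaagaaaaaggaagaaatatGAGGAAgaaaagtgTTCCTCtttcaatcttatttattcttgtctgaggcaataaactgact
Clec4a2: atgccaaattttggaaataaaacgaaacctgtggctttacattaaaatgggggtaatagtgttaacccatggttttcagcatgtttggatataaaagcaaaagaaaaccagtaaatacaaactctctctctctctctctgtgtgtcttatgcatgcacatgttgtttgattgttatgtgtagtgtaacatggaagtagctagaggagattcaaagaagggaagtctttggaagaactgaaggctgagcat
Clec4e: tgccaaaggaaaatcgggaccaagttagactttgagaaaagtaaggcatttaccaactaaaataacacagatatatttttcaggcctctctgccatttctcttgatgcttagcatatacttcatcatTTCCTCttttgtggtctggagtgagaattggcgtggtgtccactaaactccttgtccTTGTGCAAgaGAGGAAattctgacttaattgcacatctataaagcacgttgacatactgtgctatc
The Clec5a window held GAGGAA on the reverse strand starting 81 and 55 bases before the gene start, and Clec12a held it 61 and 47 bases before, once on each strand. Clec12a and Clec4e also held TTGCNNAA, 140 and 66 bases before their starts. Gene starts are those of RefSeq, and for Clec4a2 and Clec12a they lie inside the GENCODE gene span rather than at its edge. The Clec4a2 window held neither motif, and whether its RefSeq start is the one used in these cells was not tested.

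Uninduced cells already carried 4 of the 10 receptors at more than 30 CPM on average. Per kb of exon, the order of the mean level in uninduced cells was Clec4e (44.7 ± 3.72 CPM per kb, SD, n = 2), Clec4d (25.2 ± 0.220), Clec5a (15.9 ± 2.16) and Clec12a (15.7 ± 6.28), and the ranges of only the last pair overlapped. Clec7a followed at 2.68 ± 0.863 CPM per kb, and the other 5 were at 1.24 or below, with Clec4a1 represented by 1 count over both libraries. In HOXA9 OFF cells the order was Clec12a (126 ± 45.2 CPM per kb), Clec4a2 (107 ± 21.0), Clec4a3 (93.2 ± 39.9), Clec5a (90.6 ± 16.5), Clec7a (72.9 ± 39.9), Clec4n (43.1 ± 35.8), Clec4e (39.2 ± 19.4), Clec4a1 (36.3 ± 25.6), Clec4d (34.8 ± 22.7) and Clec10a (5.86 ± 5.46), and the only neighbours whose ranges did not overlap were Clec4d and Clec10a. Thus Clec4e and Clec4d, first and second in uninduced cells, were seventh and ninth without estradiol, behind genes that had ranked below them. Lengths are the union of annotated exons, 1327 to 5139 bases, and a shorter expressed isoform would raise a gene's value per kb. Summed over the 10 genes, the level was 336 and 261 CPM in uninduced, 313 and 237 in the IPTG-treated control, 547 and 555 in CAF-1 OFF and 1895 and 1847 in HOXA9 OFF libraries. In such bulk samples, fewer cells of a type and less RNA per cell cannot be told apart.

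**Figure D1:**
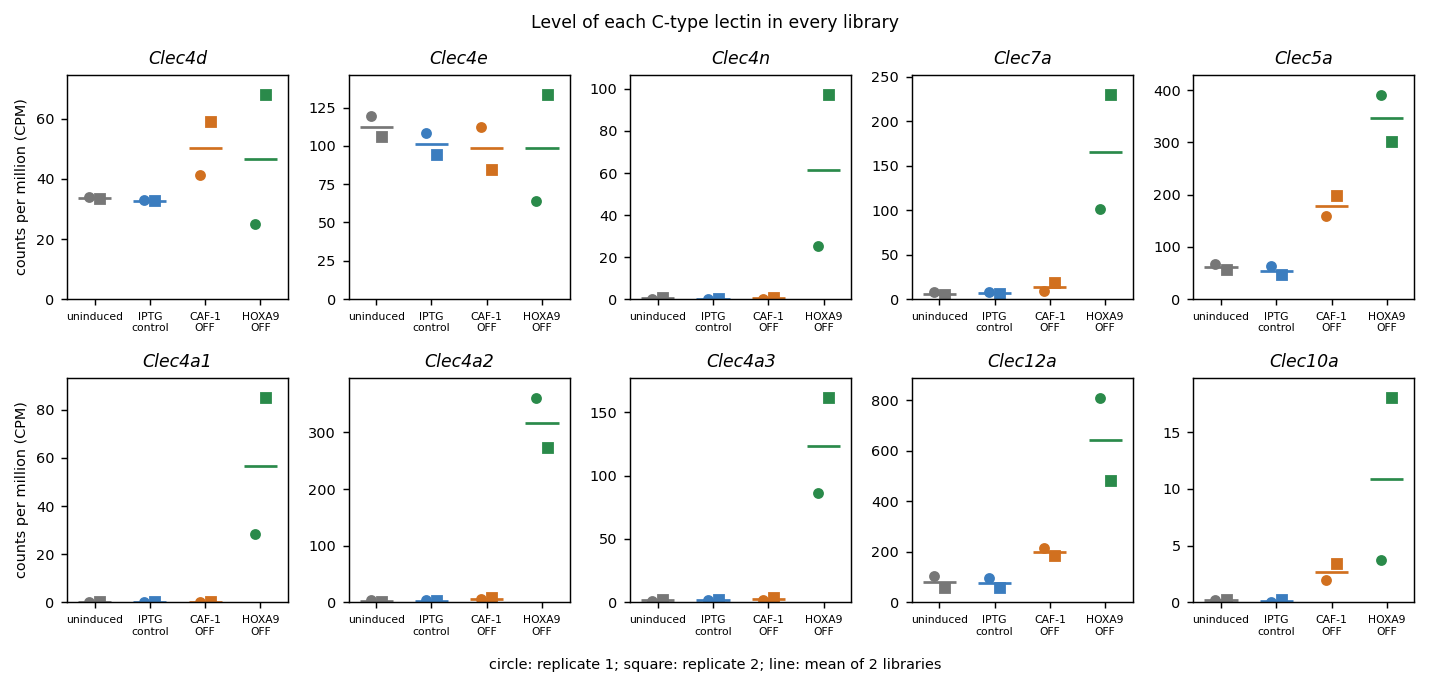
Level of each lectin gene in CPM (linear axes from 0, 1 panel per gene) in the 8 libraries, with circles for replicate 1, squares for replicate 2 and a line at the mean of 2 libraries. The panels of Clec4a1, Clec4a2, Clec4a3, Clec4n and Clec7a stay near 0 until HOXA9 OFF. Clec5a, Clec12a and Clec10a show an intermediate step in CAF-1 OFF, which for Clec10a comes close to HOXA9 OFF replicate 1. For Clec4d and Clec4e the HOXA9 OFF libraries lie on both sides of the uninduced ones.

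Estradiol withdrawal was the stronger of both inductions for this family. Of the 10 members, 8 were called higher in HOXA9 OFF than in uninduced cells and 0 lower (edgeR quasi-likelihood test, Benjamini-Hochberg adjusted p, here FDR, under 0.05 and at least 1.5-fold), where 25.2% of all 13080 tested genes were called higher and 22.1% lower. Clec4a1 and Clec4n passed the filter on low counts through HOXA9 OFF only and Clec10a through HOXA9 OFF and CAF-1 OFF, so a difference was built into their passing. Of the 7 members that passed in every group, 5 were called higher. Over these 7 the median log2 fold change was 3.00, against 0.01 over all tested genes and 5.25 with the other 3 included.

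The DCIR genes, paralogues around the inhibitory receptor DCIR, went from near nothing to high levels. Clec4a2, which encodes the ITIM-bearing DCIR itself, was at 3.52 and 1.24 CPM in uninduced and at 361 and 272 CPM in HOXA9 OFF libraries, a log2 fold change of 7.06 (SE 0.47, edgeR FDR 2.42e-05). Clec4a3 was at 1.34 and 1.97 CPM before and 86.2 and 161 CPM after estradiol withdrawal, a log2 fold change of 6.22 (SE 0.40, edgeR FDR 2.13e-05). The groups lay far apart for both genes, and without uninduced replicate 1 the Clec4a2 value was 7.98. Clec4a1 gave 0 and 1 counts in the uninduced and 523 and 1711 counts in the HOXA9 OFF libraries, that is 28.4 and 84.9 CPM (edgeR FDR 8.11e-05). The ratio of its summed, depth-scaled counts was 2654 with a 95% interval of 476 to 104864 that covers counting error only.

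Clec12a encodes MICL, the other ITIM-bearing member, and was the most abundant of the 10 in HOXA9 OFF cells by CPM. It was at 104 and 58.0 CPM in uninduced and at 809 and 481 CPM in HOXA9 OFF libraries, a log2 fold change of 3.00 (SE 0.39, edgeR FDR 0.000389). Together with Clec4a2, both genes for inhibitory receptors among the 10 were thus called higher.

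Activating receptors responded unevenly. Clec4n encodes Dectin-2, a receptor for fungal mannans that signals through Fcer1g, and had 4 and 17 counts in the uninduced libraries (0.178 and 0.727 CPM) against 25.3 and 97.2 CPM in HOXA9 OFF. Its log2 fold change was 7.05 (SE 0.87, edgeR FDR 0.000306), and it stayed called with any 1 library left out, at 5.78 (without HOXA9 OFF replicate 2) to 8.37 (without uninduced replicate 2). Clec7a, the β-glucan receptor Dectin-1 with an activation motif in its own tail, was at 7.48 and 4.71 CPM in uninduced and 101 and 229 CPM in HOXA9 OFF libraries, a log2 fold change of 4.76 (SE 0.52, edgeR FDR 0.000178) that was 4.06 without HOXA9 OFF replicate 2. Clec5a (MDL-1), which pairs with DAP12, was at 66.5 and 54.8 CPM in uninduced and 391 and 301 CPM in HOXA9 OFF libraries. Its log2 fold change of 2.51 (SE 0.21, edgeR FDR 5.62e-05) was the smallest of the 8 called.

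Clec10a, the galactose-type lectin MGL1 known from macrophages and dendritic cells, was the least abundant of the 10 in HOXA9 OFF cells. It was at 0.223 and 0.171 CPM in uninduced and 3.69 and 18.0 CPM in HOXA9 OFF libraries, a log2 fold change of 5.74 (SE 0.96, edgeR FDR 0.00150). Without HOXA9 OFF replicate 1 this was 6.47 and without replicate 2 it was 4.19.

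The pair at the far end of the Dectin-2 cluster was not called. Clec4e encodes Mincle, a receptor for mycobacterial cord factor, and Clec4d its partner chain MCL, both coupled to Fcer1g. Clec4e was at 119 and 106 CPM in uninduced and at 64.1 and 133 CPM in HOXA9 OFF libraries, with a log2 difference of -0.19 (95% interval -0.90 to 0.52, edgeR FDR 0.622). Clec4d was at 33.9 and 33.5 CPM in uninduced and at 25.0 and 68.0 CPM in HOXA9 OFF libraries, with a log2 difference of 0.47 (95% interval -0.46 to 1.39, edgeR FDR 0.345). For each gene, 1 HOXA9 OFF library was below and 1 above both uninduced libraries, so the mean rests on libraries that disagree. Without HOXA9 OFF replicate 1, Clec4d was called higher (log2 1.01, edgeR FDR 0.00386) and Clec4e was at 0.24, and without replicate 2 Clec4e was called lower (log2 -0.81, edgeR FDR 0.00929) and Clec4d was at -0.43. In the fit of both libraries, the upper ends of the intervals of both genes lay below 2.51, the smallest log2 fold change among the other 8.

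**Figure D2:**
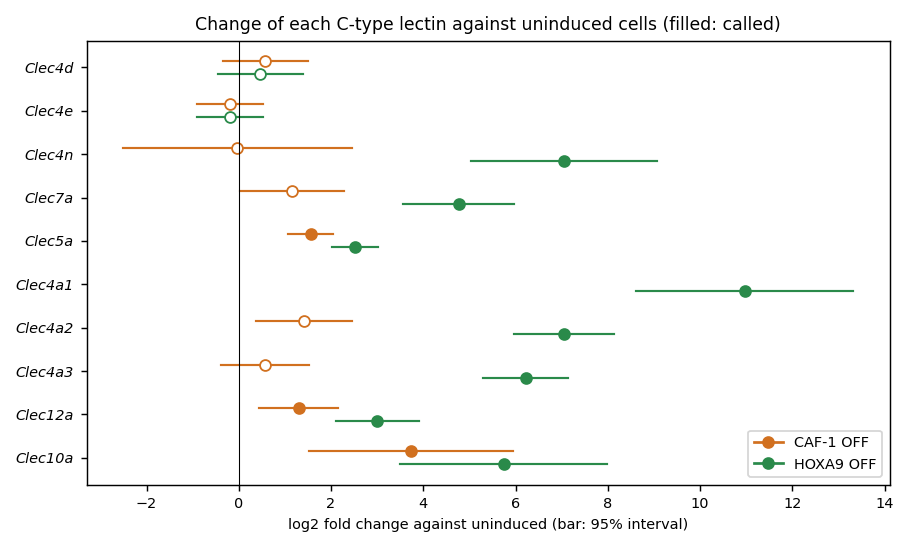
Log2 fold change against uninduced cells (horizontal axis) for each lectin gene in HOXA9 OFF and in CAF-1 OFF cells, with 95% intervals from the edgeR fit, 2 libraries per group, and filled points for called genes. In HOXA9 OFF cells 8 points are filled, between 2.51 and 10.97, and Clec4d and Clec4e sit near 0, while in CAF-1 OFF cells Clec5a, Clec12a and Clec10a are filled, and Clec4a1 has no CAF-1 OFF point because both groups held 3 counts or fewer.

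In CAF-1 OFF cells 3 of the 10 members, Clec5a, Clec12a and Clec10a, were called higher and 0 lower, where 10.5% of all tested genes were called higher and 3.50% lower than in uninduced cells. Clec10a had passed the filter through the induced groups only, and of the 7 members that passed in every group 2 were called. Clec5a read 160 and 197 CPM in the CAF-1 OFF libraries, above both uninduced ones, a log2 fold change of 1.56 (SE 0.21, edgeR FDR 0.00568). Clec12a was at 215 and 182 CPM, also above both uninduced libraries, with a log2 fold change of 1.29 (SE 0.37, edgeR FDR 0.0440). Clec10a went from 5 and 4 counts to 38 and 65 counts, or 2.00 and 3.40 CPM, a log2 fold change of 3.74 (SE 0.95, edgeR FDR 0.0316). These calls rest on few libraries: leaving out any 1 of the 4 libraries left only Clec5a called, or none, while the calls over all genes fell from 1836 to between 157 and 1358. Without uninduced replicate 1 Clec5a itself had a log2 fold change of 1.70 with an edgeR FDR of 0.0505, and over the 4 omissions the FDR of Clec12a was 0.0834 to 0.183 and that of Clec10a 0.0606 to 0.163. The sum of the 12 neutrophil markers was 109 to 121 CPM in uninduced and 1331 and 2348 CPM in CAF-1 OFF libraries. Mmp8, the neutrophil collagenase gene, made up 82.0% and 82.5% of the latter, and the other 11 markers summed to 62.3 and 66.0 before and 240 and 411 CPM after. The 14 monocyte and macrophage markers summed to 445 and 594 CPM in uninduced and 616 and 406 CPM in CAF-1 OFF libraries, and without Ccr2 the other 13 summed to 114 and 71.7 before and to 151 and 248 CPM after CAF-1 depletion. The part of either cell type in the lectin levels was not tested.

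The remaining 7 members did not pass the test in CAF-1 OFF cells. Clec4a2 was at 5.0 and 7.68 CPM, above both uninduced libraries, with a log2 difference of 1.42 (edgeR FDR 0.0600). With 1 library left out, this difference ran from 0.85 to 2.34. Clec7a was at 9.16 and 18.0 CPM, with a log2 difference of 1.16 (edgeR FDR 0.127). Clec4d (41.3 and 59.1 CPM), Clec4a3 (1.90 and 3.03 CPM) and Clec4e (112 and 84.3 CPM) had log2 differences of 0.58, 0.57 and -0.19, with edgeR FDRs of 0.333, 0.350 and 0.680. The upper end of the 95% interval was 1.5 for Clec4d, 1.52 for Clec4a3 and 0.52 for Clec4e, and the HOXA9 OFF fold change of Clec4a3 lies far beyond that. Clec4n had 4 and 13 counts and Clec4a1 0 and 3 counts, which is at or near the limit of detection at this depth. The median log2 difference over the 7 members that passed the filter in every group was 1.16, against 0.01 over all tested genes.

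No receptor passed the test with IPTG alone. None of the 10 was called between the IPTG-treated control and uninduced cells with edgeR or with DESeq2, and 0 of 10 had an unadjusted p under 0.05. Over all 13080 genes 0% were called by edgeR, and DESeq2 called 5. An unadjusted edgeR p under 0.05 was found for 100 genes (0.765%), a smaller share than that cutoff itself. The edgeR test was thus strict here, and a lack of calls does not show that IPTG had no effect. Clec5a was at 63.7 and 45.7 CPM and Clec12a at 95.2 and 55.8 CPM in the control, each overlapping the uninduced range. Clec4n had 1 count in each control library against 4 and 17 in uninduced cells, a ratio of summed counts of 0.143 with a counting interval of 0.0163 to 0.586, and its edgeR unadjusted p was 0.148.

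Against the IPTG-treated control as baseline, CAF-1 OFF cells gave calls for Clec5a, Clec10a and Clec12a, 3 of 10 higher and 0 lower, where 9.56% of all genes were higher and 3.20% lower. Of the 7 members that passed in every group, 2 were called here too. This comparison and the one with uninduced cells share the CAF-1 OFF libraries. The log2 fold change of Clec5a was 1.71 (SE 0.21, edgeR FDR 0.00482), and that of Clec12a was 1.39 (SE 0.37, edgeR FDR 0.0392). Clec10a had 103 summed counts against 3, a ratio of 27.4 with a counting interval of 9.13 to 135 (edgeR FDR 0.0290). Its log2 fold change of 4.70 was 3.81 without IPTG-treated control replicate 1 and 8.72 without replicate 2. Leaving out any 1 of these 4 libraries left 1 member called, while the calls over all genes fell from 1670 to between 199 and 1141, and the FDR of Clec12a was then 0.0824 to 0.195 and that of Clec10a 0.0565 to 0.150. Clec4a2 was not called, with a log2 difference of 1.28 (edgeR FDR 0.0952).

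The direct test between both induced states put 7 members lower in CAF-1 OFF than in HOXA9 OFF cells and 0 higher, where 21.4% of all genes were lower and 22.2% higher. Of the 7 members that passed the filter in every group, 5 were called lower, with a median log2 difference of -1.70. Clec4a1 and Clec4n, the other called genes, had passed through HOXA9 OFF alone. Clec4n differed by -7.08 (SE 0.88, edgeR FDR 0.000450), Clec4a3 by -5.65 (SE 0.39, edgeR FDR 4.48e-05) and Clec4a2 by -5.64 (SE 0.43, edgeR FDR 6.31e-05) on the log2 scale. Clec4a1 had 3 summed counts against 2234, which is a ratio of 736 in favour of HOXA9 OFF with a counting interval of 251 to 3570 (edgeR FDR 0.000149). Clec7a differed by -3.60 (SE 0.49, edgeR FDR 0.000678) and Clec12a by -1.70 (SE 0.37, edgeR FDR 0.00589). Without HOXA9 OFF replicate 2 the difference was -5.82 for Clec4n and -2.91 for Clec7a, and without CAF-1 OFF replicate 2 it was -8.14 for Clec4n. Clec5a was the closest of the called genes, at -0.96 (SE 0.20, edgeR FDR 0.00540). Clec10a was not called, at -2.01 (edgeR FDR 0.0538), and its value rests on which library is kept: without HOXA9 OFF replicate 1 it was at -2.74 (edgeR FDR 0.00396) and without replicate 2 at -0.46 (edgeR FDR 0.601). Clec4d and Clec4e had log2 differences of 0.11 and -0.01 between these states (95% intervals -0.81 to 1.03 and -0.72 to 0.71). Without HOXA9 OFF replicate 2 both were called higher in CAF-1 OFF cells, Clec4d at 1.00 (edgeR FDR 0.00736) and Clec4e at 0.61 (edgeR FDR 0.0328).

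Along the Dectin-2 cluster the genes called in HOXA9 OFF cells were interleaved with genes that stayed nearly silent. Clec4a4 and Clec4b1 lie between Clec4a3 and Clec4a2, and were at no more than 5 and 11 counts in any library. Clec4b2, between Clec4a2 and Clec4n, was at 1 and 2 counts in uninduced and 438 and 308 counts in HOXA9 OFF libraries (edgeR FDR 2.86e-05), and it passed the filter through HOXA9 OFF alone. Clec4d and Clec4e, which follow Clec4n directly, were the only genes of this cluster above 10 CPM in uninduced cells.

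**Figure D3:**
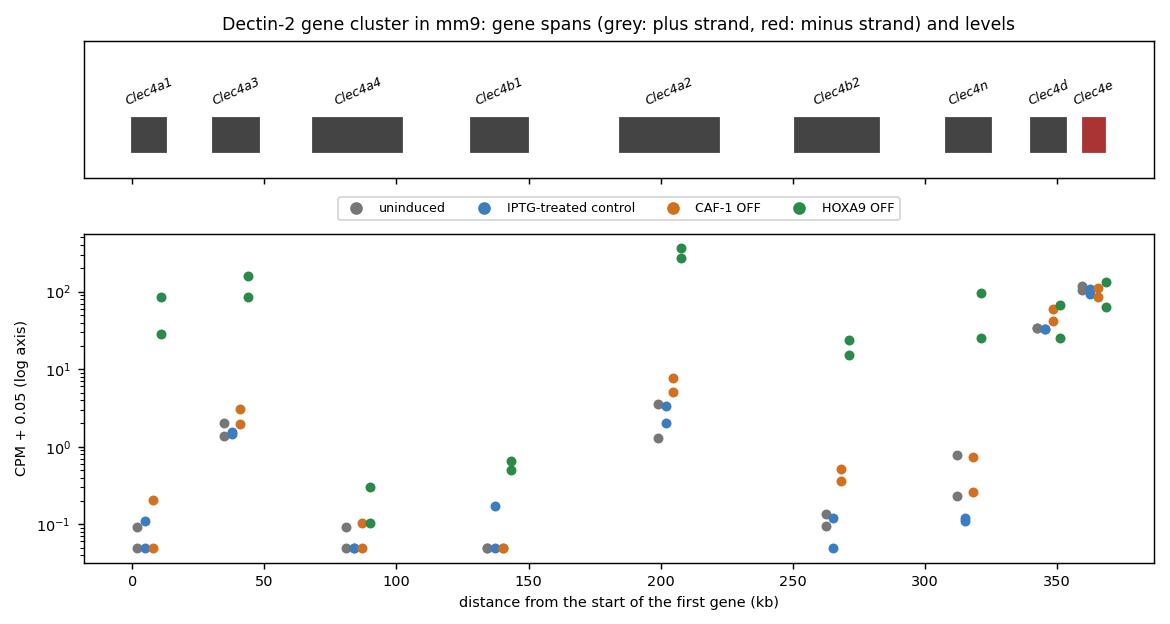
Genes of the Dectin-2 cluster by distance in kb from the start of Clec4a1 (upper strip, grey plus strand, red minus strand) and their levels in the 8 libraries as CPM plus 0.05 on a log axis, with points shifted sideways by group. HOXA9 OFF points lie far above the others for Clec4a1, Clec4a3, Clec4a2, Clec4b2 and Clec4n, while at Clec4d and Clec4e all groups lie close together.

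The HOXA9 OFF libraries differed from each other in most members. Replicate 2 was higher than replicate 1 for 7 of the 10, on the log2 scale by 2.25 for Clec10a, 1.94 for Clec4n, 1.58 for Clec4a1, 1.44 for Clec4d, 1.18 for Clec7a, 1.05 for Clec4e and 0.90 for Clec4a3. It was lower for Clec12a (-0.75), Clec4a2 (-0.40) and Clec5a (-0.37). So 6 of 10 members were at least 2-fold higher in replicate 2, against 6.72% of all tested genes. Markers of other cells also differed between these libraries. The 14 monocyte and macrophage markers summed to 1481 CPM in replicate 1 and 2752 CPM in replicate 2, and 8 of the 11 tested were higher in replicate 2. C1qb, a complement chain made by macrophages, was at 0.434 and 121 CPM, Ms4a7 at 18.9 and 313 CPM, and the lysosomal protein gene Cd68 at 47.3 and 234 CPM. These genes differed most, and the median log2 difference of the 11 was 0.87. Emr1 (494 and 437 CPM), Cx3cr1 (24.8 and 18.4 CPM) and Irf8 (134 and 133 CPM) were the 3 that were lower in replicate 2. The 12 neutrophil markers summed to 11300 and 7786 CPM and all 12 were lower in replicate 2, with log2 differences of -0.79 to -0.17. This direction was not particular to HOXA9 OFF. Of these 12, replicate 2 was lower for 10 in uninduced and for 9 in IPTG-treated control libraries. All 8 progenitor markers were lower in replicate 2 in uninduced, control and HOXA9 OFF libraries. The CAF-1 OFF libraries differed too. Replicate 2 was the higher there for 8 of 10 lectins, 11 of 12 neutrophil and 10 of 11 monocyte and macrophage markers. Chaf1b was at 18.7 CPM in CAF-1 OFF replicate 1 and 9.72 CPM in replicate 2. Whether cell makeup or the Chaf1b level accounts for the lectin differences was not tested. In each single HOXA9 OFF library, the 8 called members were above both uninduced libraries.

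**Figure D4:**
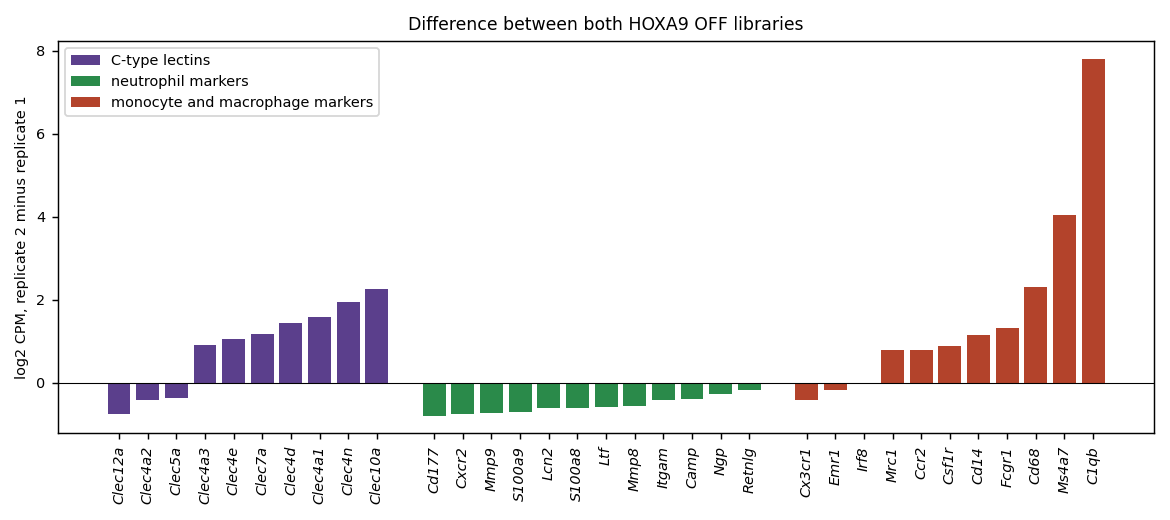
Difference in log2 CPM between both HOXA9 OFF libraries (replicate 2 minus replicate 1, 1 bar per gene) for the 10 lectins, 12 neutrophil markers and 11 tested monocyte and macrophage markers. Neutrophil markers all lie below 0, most macrophage markers and 7 lectins lie above 0, and Clec12a, Clec4a2 and Clec5a lie below it.

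The signalling partners of these receptors followed estradiol withdrawal but hardly CAF-1 depletion. Of 28 tested genes of the adaptor, kinase and NF-κB list, 23 were called higher in HOXA9 OFF cells and 0 lower, where 25.2% of all genes were higher and 22.1% lower, with a median log2 fold change of 1.34 against 0.01 over all genes. In CAF-1 OFF cells 1 was called higher and 0 lower, where 10.5% of all genes were higher and 3.50% lower, with a median of 0.04. Between both induced states 22 were lower after CAF-1 depletion, where 21.4% of all genes were. Against the IPTG-treated control 1 of 28 was called in CAF-1 OFF cells, where 9.56% of all genes were higher. That gene was Fgr, a Src family kinase, in both comparisons, and in each it kept its call in 1 of the 4 fits with a library left out, the one without CAF-1 OFF replicate 1.

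Adaptors showed the contrast directly. Tyrobp (DAP12), partner of Clec5a, was at 113 and 101 CPM in uninduced, 710 and 721 CPM in HOXA9 OFF and 82.6 and 62.9 CPM in CAF-1 OFF libraries. It rose in HOXA9 OFF cells with a log2 fold change of 2.74 (SE 0.15, edgeR FDR 1.55e-05). In CAF-1 OFF cells its log2 difference was -0.56 (SE 0.14, edgeR FDR 0.0303), a 1.47-fold lower level that passed the FDR but not the 1.5-fold threshold, and both libraries were below both uninduced ones. Clec5a RNA was thus higher in CAF-1 OFF cells while the RNA of its adaptor was not. Hcst (DAP10), the other adaptor that Clec5a can use, rose in HOXA9 OFF cells by a log2 fold change of 1.15 (SE 0.20, edgeR FDR 0.00192) and had a log2 difference of 0.51 in CAF-1 OFF cells (edgeR FDR 0.113). Fcer1g, partner of Mincle, MCL and Dectin-2, was at 149 and 166 CPM in uninduced and 380 and 532 CPM in HOXA9 OFF libraries, a log2 fold change of 1.53 (SE 0.19, edgeR FDR 0.000356). After CAF-1 depletion it read 156 and 122 CPM, a log2 difference of -0.18 (edgeR FDR 0.535).

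Downstream of the receptors, Syk rose by 1.40, Card9 by 0.92 and Ptpn6 by 1.35 on the log2 scale in HOXA9 OFF cells (edgeR FDR 6.59e-05, 0.000436 and 6.48e-05). In CAF-1 OFF cells their log2 differences were 0.04, -0.21 and -0.22, none called. Ptpn11 was called in neither state, with log2 differences of -0.09 in HOXA9 OFF and -0.13 in CAF-1 OFF cells. Further along the list in HOXA9 OFF cells, Fgr rose by 5.06, the NF-κB subunit gene Rela by 0.84 and the phosphatase gene Inpp5d by 0.72 on the log2 scale (edgeR FDR 1.88e-05, 0.000131 and 0.000360). Blnk, an adaptor best known from B cells, was at 1.29 and 1.11 CPM in uninduced and at 8.41 and 63.3 CPM in HOXA9 OFF libraries, a log2 fold change of 4.89 (SE 0.90, edgeR FDR 0.00241). The HOXA9 OFF libraries of Blnk disagreed, and its value was 5.71 without replicate 1 and 2.80 without replicate 2.

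**Figure D5:**
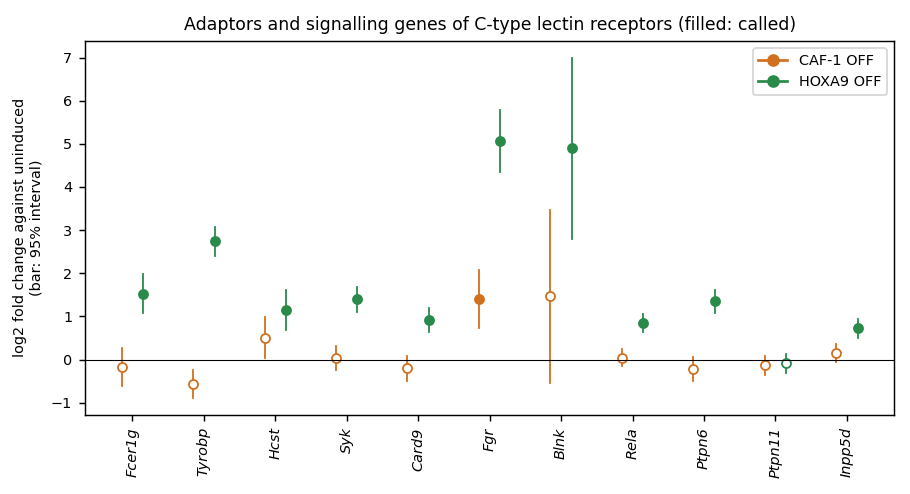
Log2 fold change against uninduced cells (vertical axis) of the 11 adaptor and signalling genes described in the text in HOXA9 OFF and in CAF-1 OFF cells, with 95% intervals from the edgeR fit and filled points for called genes. In HOXA9 OFF cells the points of all but Ptpn11 are filled and above 0, and in CAF-1 OFF cells only Fgr is filled and Tyrobp lies at -0.56.

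Genes that these receptors are known to induce were mostly at low levels. Of 12 listed cytokine and response genes 8 passed the filter. The test called 3 of these higher after CAF-1 depletion, and 5 higher with 1 lower after estradiol withdrawal, where 10.5% and 25.2% of all genes were higher and 3.50% and 22.1% lower. Il1b and Cxcl2 passed the filter through the induced groups only and Il23a through CAF-1 OFF. Of the other 5, which passed in every group, 1 was called higher after CAF-1 depletion, and 3 higher and 1 lower after estradiol withdrawal. Nlrp3, the inflammasome sensor, was at 3.69 and 7.57 CPM in uninduced, 20.8 and 35.9 CPM in CAF-1 OFF and 161 and 171 CPM in HOXA9 OFF libraries. It rose in both states, with log2 fold changes of 2.33 (SE 0.39, edgeR FDR 0.00994) and 4.88 (SE 0.42, edgeR FDR 5.79e-05). The other calls in CAF-1 OFF cells were Il1b and Cxcl2, which were under 10 CPM on average in both groups and are named after their values were seen. With 1 library left out, Nlrp3 kept this call in 2 of 4 fits (edgeR FDR 0.0729 without CAF-1 OFF replicate 2 and 0.0685 without uninduced replicate 1), Il1b in 2 and Cxcl2 in 0. Tnf rose in HOXA9 OFF cells (log2 2.66, SE 0.43, edgeR FDR 0.00124). Against the IPTG-treated control 2 of the 8 were called higher in CAF-1 OFF cells, where 9.56% of all genes were, among them Nlrp3 (log2 2.65, edgeR FDR 0.00932). Nlrp3 kept that call only without CAF-1 OFF replicate 1. Between both induced states 3 were lower after CAF-1 depletion, where 21.4% of all genes were.

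Other genes with a C-type lectin domain were less uniform. Of 58 in the files 25 were tested. CAF-1 depletion gave 7 calls upward and 1 downward, where 10.5% of all genes were higher and 3.50% lower. Estradiol withdrawal gave 12 upward and 3 downward, where 25.2% of all genes were higher and 22.1% lower. Of the 14 that passed the filter in every group, 5 were called higher and 1 lower after CAF-1 depletion, and 5 higher and 2 lower after estradiol withdrawal. Mgl2, the paralogue of Clec10a, rose in both, by log2 2.71 (edgeR FDR 0.0460) and 3.52 (edgeR FDR 0.00644), and Klrb1f by 1.92 and 1.55 (edgeR FDR 0.00611 and 0.00157). The Mgl2 libraries disagreed within each group, at 4.95 and 16.4 CPM in CAF-1 OFF and 27.3 and 10.3 CPM in HOXA9 OFF. Cd69, an activation marker, was lower in both (log2 -0.86 and -2.78, edgeR FDR 0.0108 and 1.67e-05). Cd72, a B cell coreceptor, was at 18.4 and 24.4 CPM in uninduced and at 0.922 and 7.74 CPM in HOXA9 OFF libraries (log2 -2.29, SE 0.76, edgeR FDR 0.0331), which also disagreed. Its log2 difference was -1.47 without HOXA9 OFF replicate 1 and -4.53 without replicate 2, and without uninduced replicate 1 or 2 it was not called (edgeR FDR 0.0725 and 0.117). Klrk1 and Clec4b2 were called higher there, at 19.0 and 19.5 CPM on average, and both passed the filter through HOXA9 OFF alone. Thrombomodulin (Thbd) and the endocytic receptor Ly75 were called higher in CAF-1 OFF cells, by log2 0.98 and 1.31 (edgeR FDR 0.0254 and 0.0402). With 1 of the 4 libraries left out in turn, the CAF-1 OFF calls of Klrb1f and Cd69 held in 2 fits each and those of Mgl2, Thbd and Ly75 in 1 each. Without CAF-1 OFF replicate 2 or uninduced replicate 1 none of these 5 was called. Between both induced states 6 of the 25 were lower in CAF-1 OFF cells, among them Klrk1, Clec4b2 and Clec2d, and 5 were higher, among them Cd72, Clec11a and Cd69, where 21.4% of all genes were lower and 22.2% higher. Among the 14 that passed the filter in every group the balance was the other way, with 2 lower and 4 higher. Against the IPTG-treated control 8 were higher and 1 lower, where 9.56% and 3.20% of all genes were.

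Across the 8 libraries the members fell into a few shapes, given as descriptions since groups of libraries drive any correlation of log2 CPM. Clec4a1 and Clec4a3 followed each other most closely (Pearson's r of 0.996), Clec5a and Clec12a had an r of 0.970, and Clec4e had an r between -0.34 and -0.09 with each of the other members except Clec4d (0.48). Outside the 10, among 9833 genes searched, Clec5a was most like Arap3, Tmem50b and the neutrophil chemokine receptor gene Cxcr2 (r of 0.997 to 0.996), and Clec12a was most like Ppt1, Myl12b and Sun2 (0.994 to 0.992). Clec4a2 was most like Gnai2, Ebi3 and Sfpi1, the gene of PU.1 (0.999 to 0.998), Clec4a3 like Lamp2, Tmem55b and Tep1 (0.999 to 0.997), and Clec4a1 like Gabarap, Evi2a and Tfe3 (0.998 to 0.996). Clec4n was most like Tep1, Iqgap1 and Dnajb14 (0.990 to 0.984), Clec7a like Parp10, Klf6 and Rnasek (0.996 to 0.994), and Clec10a like Igtp, Parp3 and Dhx58 (0.993 to 0.989).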

How the data were processed

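RNA-seq counts were analysed for 8 libraries, 2 in each of 4 groups taken from the labels. According to the study's methods, the authors made directional libraries, used STAR for alignment to mm9 and HTSeq-count for counting. The annotation version and strand setting are not given in the sources used here. The deposited values are raw counts per gene, and reads in no gene or in several genes (5.30 to 14.6% and 2.49 to 2.88% per library) were left out of the totals.

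All libraries were fitted together with edgeR 4.0.16 (R 4.3.3; filterByExpr, TMM factors 0.894 to 1.06, glmQLFit, glmQLFTest). Of 34199 genes 13080 passed the filter, including the 10 lectins, and p-values were adjusted over all of them (Benjamini-Hochberg). A gene was called at an adjusted p under 0.05 and at least 1.5-fold, as in the study. Standard errors and 95% intervals came from the same fit, and the biological coefficient of variation was 18.9%. CPM use TMM-scaled totals. DESeq2 1.42.0, other scalings, no filter, a replicate block, a stricter threshold and leaving out each library were tried. Positions and exon lengths came from an mm9 annotation (GENCODE M1), which may not be the one the authors counted with, and promoters from RefSeq. Floors and intervals on counts cover counting error only.

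The members and all gene lists were chosen with earlier results of these data known. Named were all members; the adaptors, kinase and phosphatases Fcer1g, Tyrobp, Hcst, Syk, Card9, Ptpn6 and Ptpn11; of the signalling, response and other lectin lists, per comparison up to 3 called genes from each end of the fold change order with at least 10 CPM in one group; and the 3 genes most like each called member. Some genes that this rule names are not reported here. Marker lists covered progenitors, neutrophils, monocytes and macrophages, dendritic, lymphoid, erythroid and megakaryocyte cells.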

Additional observations from a re-analysis of the deposited data

How the results depend on the processing

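With the lectins called under each alternative as the measure, HOXA9 OFF against uninduced cells gave 8 or 9 calls and the IPTG-treated control 0 throughout. CAF-1 OFF against HOXA9 OFF gave 6 to 9. CAF-1 OFF against uninduced cells, with 3 calls, gave 3 or 4 under the other scalings, tests and filter, 1 at an FDR under 0.01 and at least 2-fold, and 0 to 1 when 1 library was left out. CAF-1 OFF against the IPTG-treated control, also with 3, gave 3 or 4, then 1 at the stricter threshold and 1 to 1 with 1 library left out. Calls over all genes in these comparisons went from 1836 to 364 and from 1670 to 282 at the stricter threshold, and to 157 to 1358 and 199 to 1141 with 1 library left out. A group reduced to 1 library is assumed there to vary like the others, and fewer samples enter the fit. No called lectin changed direction under any alternative. For the signalling, response and other lectin genes, leaving out libraries was added after seeing the data.

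Signs changed only for lectins that were not called. With library size only, Clec4n in CAF-1 OFF against uninduced cells was at a log2 difference of 0.0024, Clec4e at 0.0079 against the IPTG-treated control and 0.22 against HOXA9 OFF. Clec4e in the last comparison was at 0.0026 without the filter and 0.0079 with the replicate block. Library size only moved the median of all genes in HOXA9 OFF against uninduced cells from 0.01 to -0.18.

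Leaving out 1 library gave these ranges of the log2 difference for the lectins whose sign changed. In CAF-1 OFF against uninduced cells Clec4n ran from -1.09 to 1.29 and Clec4a1 from -2.12 to 3.66. In HOXA9 OFF against uninduced cells Clec4d ran from -0.43 to 1.01 and Clec4e from -0.81 to 0.24. In the IPTG-treated control against uninduced cells Clec4a1 ran from -2.14 to 2.55, Clec12a from -0.54 to 0.38, Clec4a2 from -0.43 to 1.07, Clec4a3 from -0.44 to 0.11, Clec7a from -0.16 to 0.54 and Clec5a from -0.41 to 0.069. In CAF-1 OFF against the IPTG-treated control Clec4a1 ran from -2.59 to 3.73 and Clec4e from -0.29 to 0.15. In CAF-1 OFF against HOXA9 OFF cells Clec4d ran from -0.45 to 1.00 and Clec4e from -0.45 to 0.61. The cause was not tested.

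Labels do not say what libraries with the same replicate number share, so they were not treated as pairs. Their deviations correlated at 0.30 to 0.48 among uninduced, IPTG-treated control and HOXA9 OFF libraries. Between these groups and CAF-1 OFF the correlations were -0.04 to 0.09. What the former libraries have in common is not known. With the replicate number as a block, CAF-1 OFF against uninduced cells had 4 calls (Clec4a2 added, FDR 0.0380), against the IPTG-treated control 4 (Clec4n added, FDR 0.0190) and against HOXA9 OFF 8 (Clec10a added, FDR 0.0237), and HOXA9 OFF against uninduced cells 8.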
